A study of Mus musculus with 4 samples.

Results

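The cytosines of CpG sites on the mitochondrial chromosome (chrM, build mm10) were examined in 4 liver libraries of C57BL6/N mice aged 6 weeks. The genotype was Pnpla7+/+ (WT) in 2 of them and Pnpla7-/- (KO) in the other 2, and the comparison asks whether DNA methylation differs without Pnpla7, a lysophospholipase. The assay was reduced representation bisulfite sequencing (RRBS): DNA is cut at sites containing CpG, unmethylated cytosines are converted so that they read as thymine, and the share of reads that still show cytosine at a site is its methylation level. How the allele was made is not stated in the labels, nor is it stated that each library is a different animal; the p-values then describe only the spread between these libraries, which may be technical. Every row on chrM was taken, which gave 66 cytosines of 4666008 listed anywhere in the genome, with the strands kept apart. Of these, 64 had at least 10 reads in every library, 32 on each strand, and they made up 64 of the 1684849 cytosines that met this minimum genome-wide. The lowest depth among the kept cytosines was 21 reads. The 2 left out were position 3333 on the plus strand in ND1, with 1 and 7 reads in WT and 0 and 5 in KO, and position 9840 on the minus strand in the arginine transfer RNA gene TrnR, with 4 and 9 reads in WT and 30 and 15 in KO. Neither had a methylated read.

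Mammalian mitochondrial DNA is a small circle present in many copies per cell. It encodes subunits of the respiratory chain and ATP synthase together with the ribosomal and transfer RNAs needed to translate them, and its long noncoding control region carries the promoters and an origin of replication. It is not packaged in histones, and CpG methylation in it is generally reported as low. The plus strand of the reference is usually called the light strand; most genes are written in its direction, and ND6 in the other. RefSeq (GRCm38.p6) annotates 37 genes on this chromosome. Kept cytosines fell in both ribosomal RNA genes and in 4 of 13 protein-coding genes, but in none of 22 transfer RNA genes. There were 3 in mt-Rnr1 (chrM:70-1024), the small ribosomal RNA, and 21 in mt-Rnr2 (chrM:1094-2675), the large one. ND1 (chrM:2751-3707) and ND6 (chrM:13552-14070), subunits of complex I, held 9 and 2. COX1 (chrM:5328-6872), the catalytic subunit of complex IV, held 12, and CYTB (chrM:14145-15288), the mitochondrially encoded subunit of complex III, held 13. These genes have no introns. The remaining 4 lay past the end of the last annotated gene at 15422, in the stretch that holds the control region.

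Nearly all mitochondrial cytosines were read as unmethylated in both genotypes. Summed over the 64 cytosines, methylated reads made up 0.395% of 200904 reads in WT replicate 1, 0.442% of 255395 in WT replicate 2, 0.432% of 242734 in KO replicate 1 and 0.407% of 260059 in KO replicate 2. The 95% exact Clopper-Pearson intervals were 0.368% to 0.423%, 0.416% to 0.468%, 0.406% to 0.459% and 0.383% to 0.432% in the same order. The intervals hold for counting error alone, because the reads passed through amplification, and they are too narrow for sums over neighbouring cytosines, which 1 read can cover together. The KO libraries lay between the WT libraries. Group means were 0.418% ± 0.0332 in WT and 0.419% ± 0.0179 in KO (SD, n = 2 each; exact permutation test, two-sided, p = 1, where 2 libraries against 2 allow no p below 0.333).

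**Figure D1:**
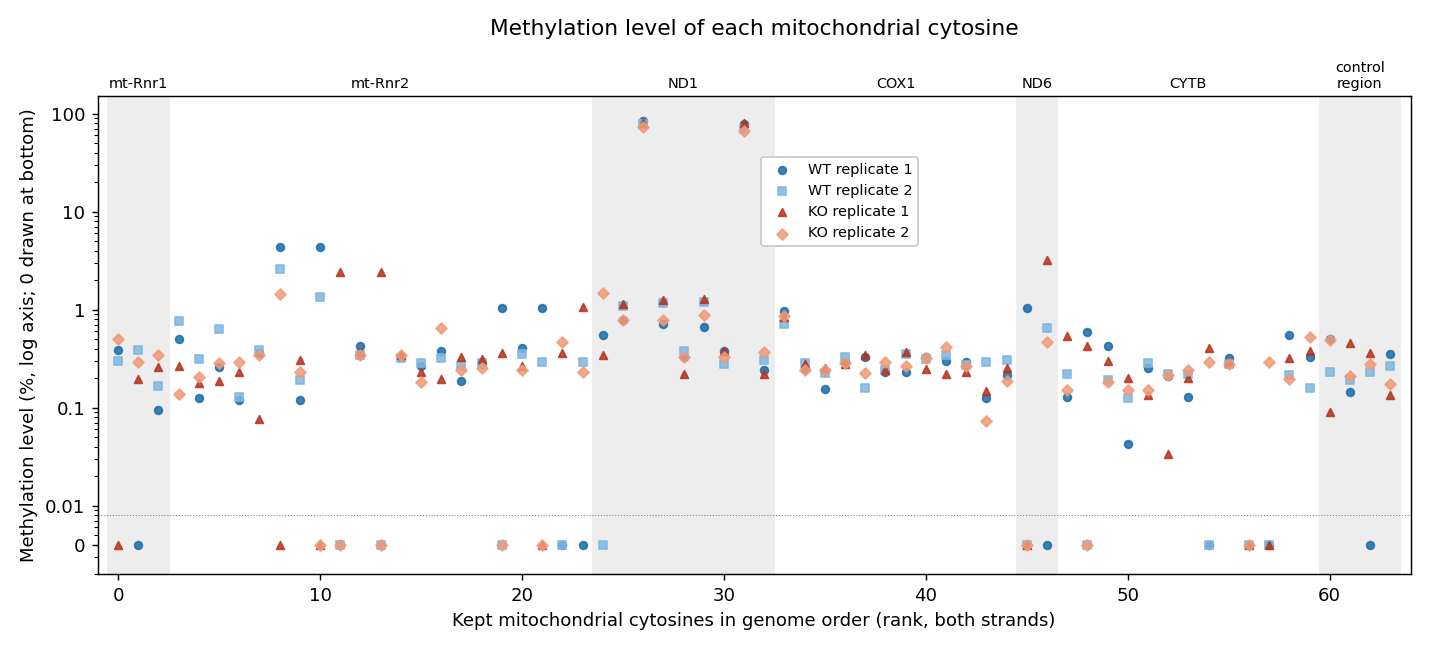
Methylation level (%, log axis, with 0 drawn at the bottom) of the 64 kept cytosines in genome order, 1 point per library. Except for 2 cytosines of ND1 above 65% in every library, no point exceeds 5%.

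Cytosines of ND1 stood apart from the others. Position 3345 on the minus strand measured 85.3% of 170 reads and 78.2% of 321 in the WT libraries, and 81.3% of 288 and 73.3% of 326 in the KO libraries, replicate 1 being given first here and below. Position 3401 on the plus strand, 56 bp away, measured 79.5% of 39 reads and 70.6% of 34 in WT, and 79.5% of 44 and 65.9% of 44 in KO. In both positions all 4 libraries were high and the genotypes overlapped. Pooled over libraries, the levels were 78.6% (95% exact Clopper-Pearson interval 76.1% to 81.0%) and 73.9% (66.4% to 80.5%). These 2 cytosines held 0.132% of the mitochondrial reads and 24.5% of the methylated ones.

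The opposite cytosine of each of these CpGs was read far more deeply and was almost unmethylated. Position 3344, the plus-strand partner of 3345, had 16067 reads summed over libraries and a level of 0.952%. Position 3402, the minus-strand partner of 3401, had 40735 reads and a level of 0.287%. The 2 highly methylated readings were therefore each on the shallow strand of their CpG. Depth at 3401 was nearly even across libraries, with a highest-to-lowest ratio of 1.29, whereas it was 1.92 at 3345. Which reads gave the high levels was not tested. Reads from nuclear copies of mitochondrial sequence cannot be told apart from mitochondrial reads in these tracks.

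At 3 further ND1 positions the plus strand measured near 1%, with pooled intervals above the pooled level of the 62 cytosines other than 3345 and 3401, 0.317%. Position 3344 measured 0.782% and 1.09% in WT, against 1.14% and 0.793% in KO. Position 3386 measured 0.707% and 1.16% in WT, against 1.24% and 0.794% in KO. At position 3395 the values were 0.661% and 1.21% in WT, against 1.28% and 0.889% in KO. WT replicate 1 and KO replicate 2 were the low libraries at all 3, so that the genotypes overlapped. Methylated reads at these positions numbered 31, 28 and 21 in WT replicate 1 and 46, 50 and 41 in KO replicate 1, and the same reads may be counted more than once. On the minus strand of the same CpGs, positions 3387 and 3396 measured 0.312% and 0.337% over all libraries. Plus exceeded minus in 4 of 4 libraries at both CpGs, by 0.667 and 0.674 percentage points. The remaining minus-strand cytosine of the gene, position 3334, had 1361 reads and a level of 0.661%.

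**Figure D2:**
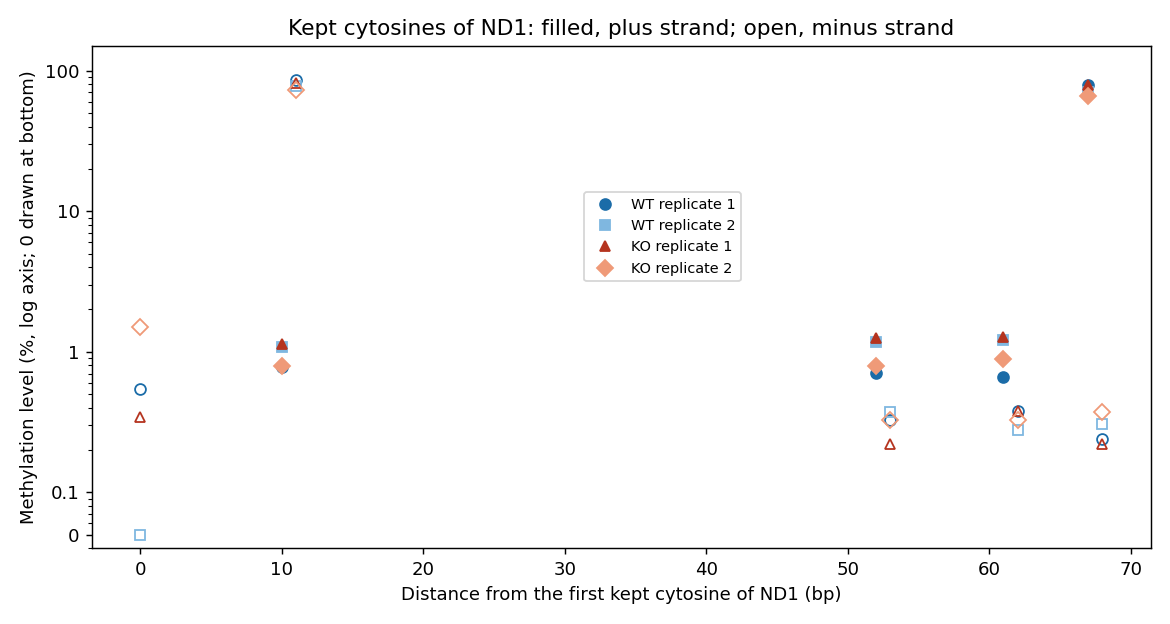
Methylation level (%, log axis, with 0 drawn at the bottom) of the 9 kept ND1 cytosines against distance from the first of them (bp), 1 symbol per library, filled for the plus strand and open for the minus strand. The 2 cytosines near the top, 1 on each strand, lie 56 bp apart; the 3 other plus-strand cytosines lie near 1%.

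Apart from the 2 high cytosines, the levels of the other 62 were low and varied within a narrow range. Pooled over libraries they ran from 0% to 1.90%, with a median of 0.274% and quartiles of 0.235% and 0.351%, and 59 of 62 were below 1%. Read-weighted, they averaged 0.307% and 0.334% in the WT libraries, against 0.322% and 0.304% in the KO libraries. Of 62 pooled Clopper-Pearson intervals, 46 covered the pooled level of these cytosines, 0.317%, while 6 lay above it and 10 below. That level includes the ND1 positions near 1%, and outside ND1 the pooled level was 0.280%. Of the 10, only the intervals at positions 6311, 14369 and 14393 also lay below 0.280%. The 6 were the 3 plus-strand positions of ND1, position 2408 in mt-Rnr2, position 5373 in COX1 and position 13588 in ND6. Position 5373, on the minus strand, measured 0.976% and 0.709% in WT and 0.838% and 0.867% in KO, against 0.264% pooled at its neighbour 5394. All 4 libraries were above 0.7% there. The 38 of these cytosines with at least 1000 reads in every library had Pearson correlations of 0.686 to 0.911 between libraries, against -0.168 to 0.760 over all 62. This is a description over cytosines that share libraries and, in part, reads. The 38 include the 3 plus-strand positions of ND1 and position 5373, which had the highest levels among them, from 0.840% to 1.01% pooled. Correlations without those positions are not given, so the range does not show that the lower levels repeat between libraries.

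Values from few reads made up the rest of the upper end. Position 2408, on the plus strand of mt-Rnr2, had 1 methylated read of 23 and 2 of 76 in WT, and 0 of 42 and 1 of 69 in KO. Position 2424, also on the plus strand, had 1 of 23 and 1 of 74 in WT and 0 of 41 and 0 of 69 in KO. Position 13588 in ND6 had 0 of 96 and 1 of 152 in WT, and 4 of 125 and 1 of 212 in KO, a pooled level of 1.03% (interval 0.377% to 2.22%). The minus-strand positions 2425 and 2431 had the same counts at both, 0 of 21 and 0 of 58 in WT and 1 of 41 and 0 of 46 in KO. Such counts do not separate these cytosines from the bulk. At 2408 and 13588 the pooled interval lay above 0.317%, as listed. These intervals hold counting error alone and are not adjusted for their number, 62. Of the 6 methylated reads at 13588, 4 were in KO replicate 1.

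Among the 5 most deeply read cytosines, levels were close to one another. Position 6390 in COX1 had 51337 reads over the 4 libraries and 0.242% methylated. Positions 6276, 6232 and 6264 in COX1 had 47874, 47781 and 47770 reads and levels of 0.265%, 0.308% and 0.304%. Position 2521 in mt-Rnr2 had 45216 reads and a level of 0.312%. At the other end, position 14673 in CYTB had no methylated read among 1034, which allows a level of up to 0.290% when 3 reads are taken as the limit and up to 0.356% by the Clopper-Pearson interval.

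By gene, read-weighted levels outside ND1 and ND6 differed little. The ribosomal RNA genes measured 0.212% ± 0.102 in WT and 0.268% ± 0.140 in KO for mt-Rnr1, and 0.311% ± 0.00556 and 0.278% ± 0.0110 for mt-Rnr2 (SD, n = 2 each). In mt-Rnr2 both KO libraries, at 0.285% and 0.270%, lay below both WT libraries, at 0.307% and 0.315%. COX1 measured 0.291% ± 0.0238 in WT and 0.282% ± 0.00402 in KO, and CYTB 0.228% ± 0.0159 and 0.232% ± 0.0301. ND1 measured 1.03% ± 0.117 in WT and 1.10% ± 0.0135 in KO, and 0.483% ± 0.0531 and 0.497% ± 0.0229 without its 2 high cytosines. ND6, from 2 cytosines and at most 425 reads in a library, measured 0.424% ± 0.136 and 0.918% ± 0.965. The 4 control region cytosines, all on the minus strand between 15701 and 15744, measured 0.251% and 0.232% in WT and 0.261% and 0.288% in KO. There both KO libraries lay above both WT libraries, by 0.0330 percentage points on average (exact permutation test, two-sided, p = 0.333, the smallest that 2 libraries against 2 allow). These sums rest on 14 and 24 methylated reads in WT and 23 and 33 in KO, and the 4 positions disagreed. Both KO libraries were higher at 15717 and 15739. At 15744 both were lower, with 0.357% and 0.269% in WT and 0.135% and 0.173% in KO. At 15701 KO was lower on average and the genotypes overlapped.

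**Figure D3:**
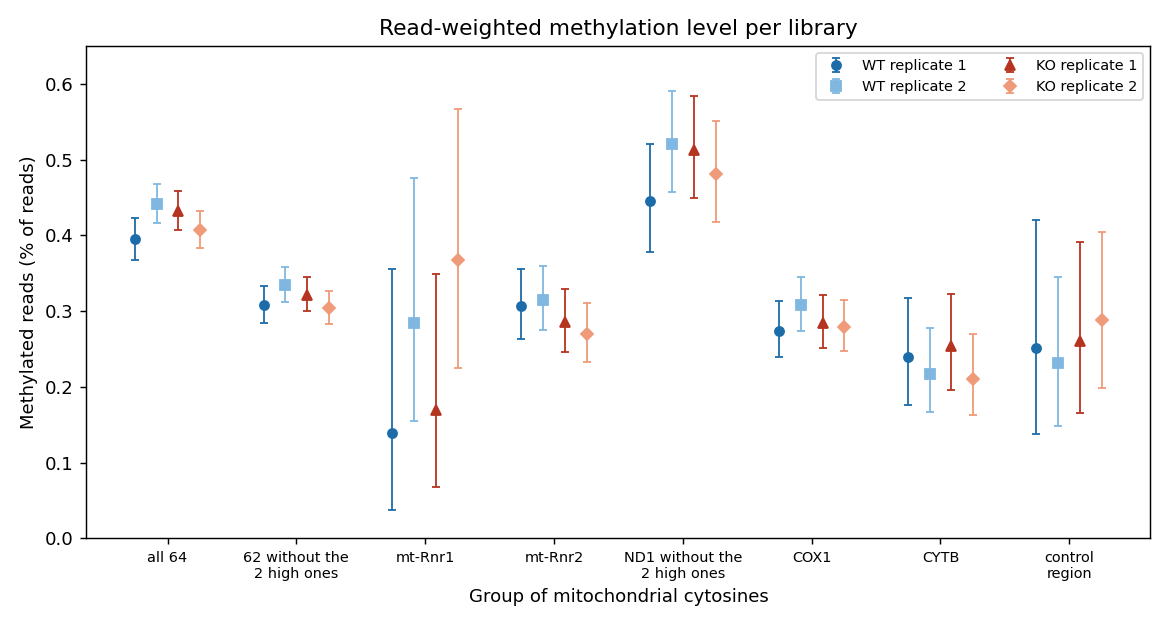
Methylated reads (% of reads) per library for all 64 cytosines, for 62 without the 2 high ones, and by gene, with ND1 drawn only without its 2 high cytosines. Points are libraries and bars are 95% exact Clopper-Pearson intervals (counting error only). The libraries overlap between genotypes except in mt-Rnr2 and the control region, where the group means differ by 0.0332 and 0.0330 points. ND6 is not drawn.

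No mitochondrial gene or cytosine passed the test between genotypes. Methylated and unmethylated reads were fitted with a quasi-binomial model whose dispersion was shrunk with limma, and p-values were adjusted over the whole table (Benjamini-Hochberg). To be called, a feature had to differ by 10 percentage points or more with an adjusted p under 0.05. Of the 6 genes with kept cytosines 0 of 6 were called, and 0 had an unadjusted p under 0.05; among all 29730 gene bodies tested the share called was 0%, and 5% had such a p. Both KO libraries lay below both WT libraries in 1 of the 6, mt-Rnr2, and above them in 0, against 15.9% and 17.7% of all gene bodies. The lowest adjusted p of the 6 was 0.964, for mt-Rnr2 (quasi-binomial model with limma). Of 63 tested cytosines 0 were called, against 0.000646% of the 1237589 tested genome-wide, and 0 also passed with no minimum difference. Fisher's exact test on reads summed by genotype, which leaves out the spread between libraries, called 0 mitochondrial cytosines and 0 mitochondrial genes, against 0.0305% of all cytosines and 0.629% of all gene bodies. By that test 2 of the 63 cytosines and 0 of the 6 genes had an unadjusted p under 0.05, against 3.11% and 18.5%. Position 14673 could not be tested for want of a methylated read. With levels under 2% at 62 of 64, a fall of 10 points was not possible at these cytosines.

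An unadjusted p under 0.05 was reached by 3 of 63 cytosines, or 4.76%, against 3.9% genome-wide. Position 1871 in mt-Rnr2 measured 0.499% and 0.775% in WT and 0.269% and 0.139% in KO, both KO libraries being lower. Position 2521, in the same gene, measured 0.403% and 0.352% in WT and 0.265% and 0.243% in KO. Position 2535 had 2 methylated reads of 191 and 1 of 343 in WT and 0 of 278 and 0 of 432 in KO. All 3 were lower in KO and lie in the large ribosomal RNA gene, which held 21 of the 63 tested cytosines. Each had an adjusted p of 0.725 (quasi-binomial model with limma). The next in order were position 3334 in ND1, at 0.546% and 0% in WT and 0.344% and 1.49% in KO, and position 2552 in mt-Rnr2, at 0% and 0% in WT and 0.358% and 0.464% in KO. Both were higher in KO on average, and at 3334 the genotypes overlapped. In mt-Rnr2 both KO libraries were also below both WT libraries at 2384, 2408, 2424 and 2478. They were above them at 2357, 2409, 2477 and 2552.

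Differences between genotypes pointed either way and were small where depth was high. KO was higher at 32 cytosines, lower at 31 and equal at 1, with a median difference of 0.00106 percentage points. Among the 31 cytosines with at least 10000 summed reads no difference exceeded 0.171 points, whereas the 7 with fewer than 1000 differed by 0.521 to 2.85 points. The largest difference, 4.46 points lower in KO, was at the highly methylated position 3345, where the group means were 81.7% ± 5.02 in WT and 77.3% ± 5.61 in KO (SD, n = 2 each; unadjusted p = 0.25 and adjusted p = 0.725, quasi-binomial model with limma). The genotypes did not overlap at 24 of 63 tested cytosines, or 38.1%, with 12 higher and 12 lower in KO. Genome-wide this share was 26.5%, with 14.1% higher and 12.4% lower. A WT and a KO library had exactly equal levels at 33.2% of tested nuclear cytosines and at 9.52% of mitochondrial ones, which limits the comparison of these shares.

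**Figure D4:**
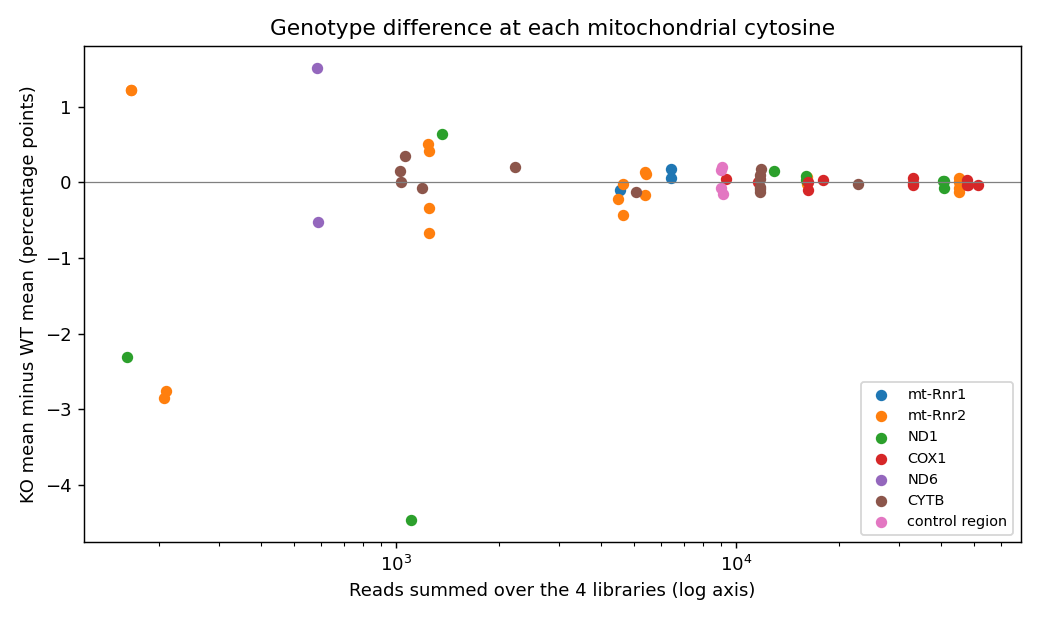
KO mean minus WT mean (percentage points) of each kept cytosine against reads summed over the 4 libraries (log axis), coloured by gene. Points lie within 0.171 points of 0 from 10000 reads on and spread out below 1000 reads; the lowest point is position 3345 in ND1.

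Between strands, the largest difference in level was in ND1. Over all 64 cytosines the plus strand averaged 0.455% ± 0.0400 and the minus strand 0.407% ± 0.0203 (SD, n = 4 libraries), with the plus strand higher in 4 of 4 libraries (exact sign-flip permutation test, two-sided, p = 0.125, the smallest p that 4 libraries allow). The order turned when the most deeply read 10% of cytosines were left out, with a plus-minus difference of -0.0595 points (p = 0.125, same exact test), and in an unweighted mean, with -0.0474 points (p = 0.625, same exact test). Without the 2 high cytosines the averages were 0.405% and 0.288%, again with plus higher in 4 of 4 libraries (p = 0.125, same exact test). In the 7 remaining ND1 cytosines they were 0.978% and 0.317%. Outside ND1 they were 0.273% and 0.282%, with plus higher in 1 of 4 libraries (p = 0.375, same exact test). The plus-minus difference was 0.0522 points in WT and 0.0446 in KO over all cytosines (exact permutation test, two-sided, p = 1).

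Both strands were kept at 14 of 50 CpGs. Over the 10 of them outside ND1 the summed plus strand was higher in 4 of 4 libraries, at 0.339% against 0.272% (exact sign-flip permutation test, two-sided, p = 0.125). At positions 2477 and 2478 in mt-Rnr2, with 16093 and 45132 reads, the levels were 0.336% and 0.242%, with plus higher in 4 of 4 libraries. At 2488 and 2489 they were 0.385% and 0.259%, and at 6275 and 6276 in COX1 0.321% and 0.265%, with plus higher in 3 of 4 libraries at each. The pooled order was the opposite at 2520 and 2521, with 0.241% against 0.312%, and at 15260 and 15261 in CYTB, with 0.296% against 0.360%. Plus was higher in 2 of 4 libraries at each. The pooled order also turned at 2430 and 2431, with 0.372% against 0.602% from 166 minus-strand reads. Only 1 of those reads was methylated, in KO replicate 1, and plus was higher in 3 of 4 libraries. The pooled level was higher on the plus strand at 6 of the 10 CpGs and on the minus strand at 4. CYTB gave both pooled orders, also at 0.263% against 0.168% for 14355 and 14356 and at 0.189% against 0.289% for 14627 and 14628. Plus was higher in 3 of 4 libraries at the former CpG and in 2 of 4 at the latter. The strand order outside ND1 thus differed between all cytosines and the CpGs with both strands read.

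Compared with nuclear CpGs, mitochondrial cytosines were concentrated at the bottom of the scale. Of the 64, 92.2% were below 1% pooled methylation, against 41.3% of 498208 nuclear cytosines with at least 10 reads in every library and 100 or more in all. Levels of 70% or more occurred at 3.13% of the mitochondrial cytosines, the 2 in ND1, and at 30.4% of these nuclear ones. The mitochondrial cytosines were much deeper, with a median of 9206 summed reads against 122, so that low levels were resolved more finely. The tracks hold only CpG cytosines, so the share of unconverted cytosines outside CpG was not analysed here, and a level near 0.3% cannot be told apart from incomplete conversion.

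Mitochondrial depth varied between libraries of one genotype more than between genotypes. Reads at mitochondrial cytosines were 0.399% and 0.430% of all reads in the WT libraries, against 0.405% and 0.430% in the KO libraries (0.414% ± 0.0221 against 0.417% ± 0.0175, SD, n = 2 each; exact permutation test, two-sided, p = 1). Median depth over the kept cytosines was 1611 and 2599 reads in WT and 2256 and 2877 in KO. Total reads were 50413170 in WT replicate 1, and 1.18, 1.19 and 1.20 times that in WT replicate 2 and KO replicates 1 and 2. WT replicate 1 was the lowest in each of these measures, while WT replicate 2 was close to or between the KO libraries.

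The deepest plus-strand mitochondrial cytosines did not follow the libraries' differences in depth. At 7 plus-strand cytosines, in mt-Rnr2, ND1 and COX1, every library had between 3958 and 4072 reads, and the highest and lowest library differed by a median factor of 1.02. At the 33 cytosines under 3000 reads in every library this factor was 2.06, with a median depth of 1.79, 1.45 and 2.06 times that of WT replicate 1 in WT replicate 2 and KO replicates 1 and 2. The 14 minus-strand cytosines of 8000 or more reads on average lay in between, at 1.23. Position 3395, on the plus strand of ND1, was also nearly even, but at lower depth. It had 3177 and 3217 reads in WT and 3205 and 3261 in KO, a highest-to-lowest ratio of 1.03. In the whole genome the deepest plus-strand cytosine of a library had 4094 to 4106 reads, whereas minus-strand depth reached 16988. Of the 10 deepest cytosines of the genome 8 were mitochondrial. Restricted to cytosines under 3000 reads in every library, mitochondrial and nuclear, the mitochondrial share was 0.0371% and 0.0548% in WT and 0.0461% and 0.0602% in KO (exact permutation test, two-sided, p = 0.667). WT replicate 1 was again the lowest library and KO replicate 2 the highest, with the genotypes overlapping. Why plus-strand depth stopped near one value, or was nearly even at 3395, was not tested.

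**Figure D5:**
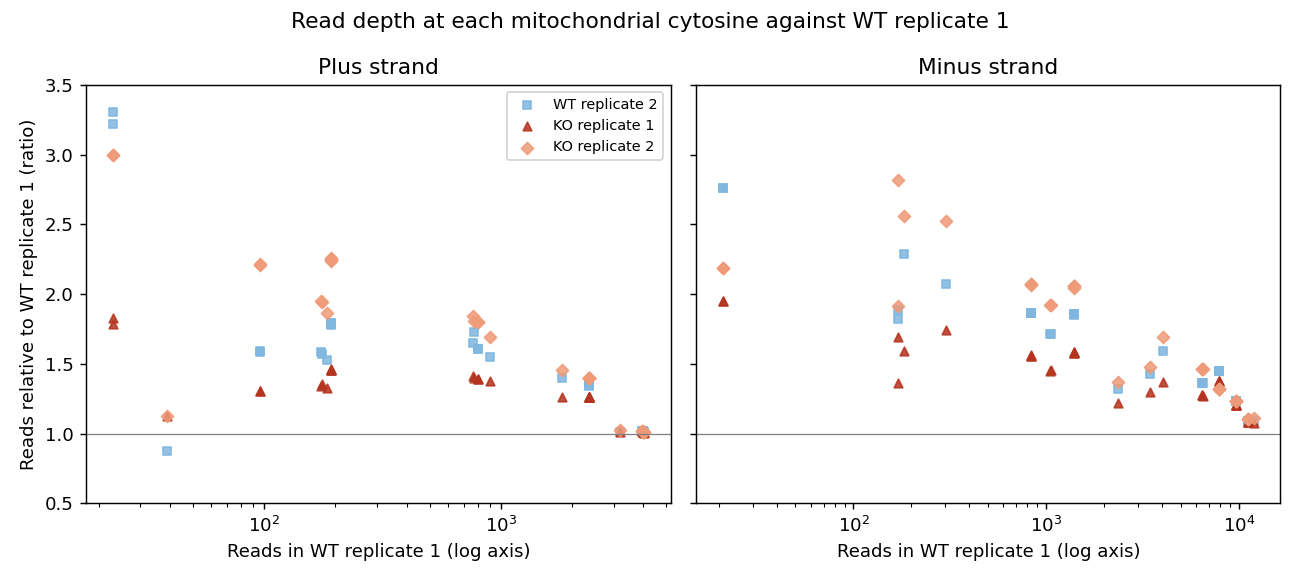
Reads at each kept cytosine relative to WT replicate 1 (ratio) against reads in WT replicate 1 (log axis), by strand, for the other 3 libraries. On the plus strand the ratios close to within about 1.02 at 3958 reads and above, and on the minus strand they narrow toward 1.10 at the deepest cytosines.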

How the data were processed

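Bisulfite libraries from liver DNA cut with TaqaI and MspI were made per the labels' protocols. Per the file headers, the authors deposited for each library a track of methylation levels (a fraction, minus sign at reverse-strand cytosines) and a track of read counts as depth, from the program GBSA on mm10. The submitters' processing notes list BWA 0.7.12 and MACS but not what each was used for; the sources used here do not give duplicate handling or depth limits. Level times depth was whole at 100% of rows (tolerance 1e-06 of depth), which gave methylated reads. Positions count from 1: all 354140 listed cytosines in RefSeq promoter sequences (GRCm38.p6) fell on CG.

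The coverage minimum was 10 reads per library. The quasi-binomial model, with its dispersion held at 1 or above, was fitted on all cytosines, strands apart, and on all gene bodies with a kept cytosine. It was also run on simulated reads that had no spread between libraries beyond counting error. The changes planted there were larger than most mitochondrial differences reported here. That run therefore cannot show how the model handles spread between libraries or small differences at low levels. Exact permutation tests served for values per library. Software was R 4.3.3, limma 3.58.1, data.table at version 1.17.8, numpy 2.4.6, pandas 2.3.3, scipy 1.17.1 and matplotlib 3.10.9. Named cytosines were the 5 with the smallest p, the highest mean level, the most and the fewest reads, besides every gene; those of ND1, position 5373 and the CpGs read on both strands were added after their values were seen. The members, lists and tests were chosen with earlier results of these data known. Alternatives covered coverage minimums, weighting, other tests and priors, strands summed, leaving out each library, and a block for the replicate number.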

Additional observations from a re-analysis of the deposited data

How the results depend on the processing

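No mitochondrial cytosine or gene was called with coverage minimums of 5 and 30 reads, a prior from features with a variance of at least 5 reads, Fisher's exact test, and no minimum difference; summing both strands of a CpG, run for cytosines, also gave 0. Over all features the main test called 8 cytosines and 0 genes, and Fisher's exact test 378 and 187. The other prior called 60 cytosines, and both other coverage minimums called 0 cytosines. Summing both strands called 9 of 1180913 CpGs, or 0.000762%. A minimum of 30 reads called 3 genes. With each library left out, where the lone library of a genotype is assumed to vary like the other genotype's, 0 features were called anywhere, so the 0 mitochondrial calls there show no stability. The genotype difference in level, 0.0013 percentage points, had no stable direction. It was -0.127 with an unweighted mean of cytosines, -0.00795 without the 2 cytosines above 5%, -0.0117 without ND1 (chosen after seeing the data), and -0.0222 to 0.0248 with each library left out. The strand difference, 0.0484 points, turned to -0.0474 unweighted, -0.0595 without the most deeply read 10% of cytosines and -0.00928 without ND1, and was 0.0360 to 0.0633 with each library left out. Its genotype difference, -0.00756 points, became 0.000106 without the 2 high cytosines and 0.0481 at CpGs read on both strands (chosen after seeing the data), and ran from -0.0485 to 0.0334 with each library left out. The genotype difference in the share of reads, 0.00315 points, ran from -0.0124 without WT replicate 1 to 0.0187 without WT replicate 2. Median mitochondrial over median nuclear depth was 140 and 216 in WT and 185 and 261 in KO, with means of 178 and 223. The genotypes overlapped (exact permutation test, two-sided, p = 0.667). The cause of these changes was not tested. At 10 reads, the minimum, single values resolve no level below 10%.

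The labels give both genotypes replicate numbers 1 and 2. Differences between replicates 1 and 2 correlated across genotypes at r = -0.00146 over nuclear cytosines. Over all mitochondrial cytosines r was 0.852, and -0.282 without the 2 high ones, at which replicate 1 exceeded replicate 2 in both genotypes; the numbers are not shown to pair the libraries. With the replicate block, 0 mitochondrial cytosines and 0 genes were called, and 0 of all features. The differences in level and in share, 0.0013 and 0.00315 points, are the same with a block by construction (exact sign-flip permutation p = 1 for both, where 0.5 is the smallest possible). Crossing the numbers, chosen after seeing the data, also gave 0 calls.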

Other observations

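The combination seen at 2 CpGs of ND1, with the deeper strand below 5% and the shallower at 70% or more, was looked for in nuclear CpGs with at least 10 reads on both strands in every library; both limits were chosen after the ND1 values were seen. It occurred at 5 of 161266 nuclear CpGs whose deeper strand was below 5%, or 0.0031%, and at 2 of 14 mitochondrial ones. Where the strands differed at least 10-fold in depth it occurred at 2 of 24 nuclear CpGs and at 2 of 6 mitochondrial ones. Few nuclear CpGs had so unequal a depth.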
